A study of Drosophila melanogaster with 28 samples.

Results

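Transcript levels in chromosomally XX tra pseudomales were compared directly with those in Canton S (CS) females on 4 of the 28 two-colour oligonucleotide arrays of the series. The members are all array elements other than controls with a value on at least 3 of these 4 arrays, which were 6235 of 15744 elements. The pseudomales carried the mutant allele tra1 over the deficiency Df(3L)st-j7. An X chromosome from their fathers held y, w and a ubiquitin-GFP transgene, by which XX animals were recognised. That transgene is itself marked with a copy of white (w+cM). CS is a wild type strain, so the tra genotype, the deficiency, the marked X chromosome and the stock background all differ between pseudomales and females, and these cannot be told apart in this comparison. Each RNA came from about 30 whole pupae aged 48 hours after puparium formation (APF). CS female RNA was in the Cy5 channel on arrays 1 and 2 and in the Cy3 channel on arrays 3 and 4. Set beside it are 2 other comparisons of XX mutants with CS females, those of dsxD pseudomales (dsxD, Sb1, e1 over dsx m+r15, with the same marked X chromosome) and of dsx null animals (dsx d+R3 over dsx m+r15, with the GFP transgene), and also XY dsx null animals against CS males. Comparisons of females with males were made in CS, in the Berlin strain and in the progeny of tud females, which lack a germline. The mothers of the tud progeny were tud1 bw1 sp1, and the fathers carried y, w and the GFP transgene. Female tud progeny had GFP and were told from males by it, so the marked X chromosome also differs between the sexes there.

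In Drosophila, the number of X chromosomes relative to autosomes sets whether the splicing factor SXL is made. SXL directs the splicing of tra in females, and TRA with TRA-2 then directs the female splicing of doublesex (dsx) and fruitless. Without TRA, XX animals make the male form of DSX and look like males, while the steps above tra, dosage compensation of the X chromosome with its roX RNAs among them, follow the number of X chromosomes. At 48 hours APF the pupa is building adult cuticle, muscle and eyes, and larval fat body cells are still present.

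All ratios are log2 of CS female over XX tra pseudomale, as deposited, so that a negative ratio means a higher level in the pseudomales and a positive ratio a lower level. The 4 arrays held values for between 5536 and 7719 elements each, and their median log2 ratios were between -0.02 and 0.03. An element without a value on an array did not pass the authors' intensity filter there. Elements were called at a q value below 0.15 in a limma fit with a term for the dye orientation. In this fit, 3764 of the 6235 elements were called (60.4%), of which 1792 (28.7%) were higher and 1972 (31.6%) were lower in the pseudomales. Of the called elements, 1605 had ratios of both signs among their arrays. The other 2159 (34.6% of those tested) had the same sign on every array that measured them, 1024 (16.4%) higher and 1135 (18.2%) lower in the pseudomales, and below an element is said to have risen or fallen in the pseudomales only if it was among these. Among the 1617 tested elements with a name, 40.5% were called with the same sign, 16.9% higher and 23.6% lower. All members of the gene lists below are named elements, so these shares also apply where a list is set beside all elements. The study placed 1 subset of genes downstream of tra using these same 4 arrays, and for members of that subset the direction is given below as a description that is not independent evidence.

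The ratios moved with the dye orientation. Arrays of the same orientation correlated at r = 0.72 (arrays 1 and 2) and r = 0.68 (arrays 3 and 4) across elements, while arrays of opposite orientation correlated at between 0.27 and 0.45. Genes are not independent replicates. Each orientation was used on only 1 pair of arrays, so a dye effect and any other effect shared by a pair cannot be told apart. Without the dye term, 1889 elements were called, all of which were also called with it, and none with the opposite sign. Without array 3 or array 4, the number was 1882 or 1889. At least 2-fold differences were a small part of the calls, since 108 elements rose and 84 fell by that much. Nothing in the labels says that the 4 pseudomale RNAs came from separate cultures, so the q values measure only the spread between these arrays, which may be technical.

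**Figure D1:**
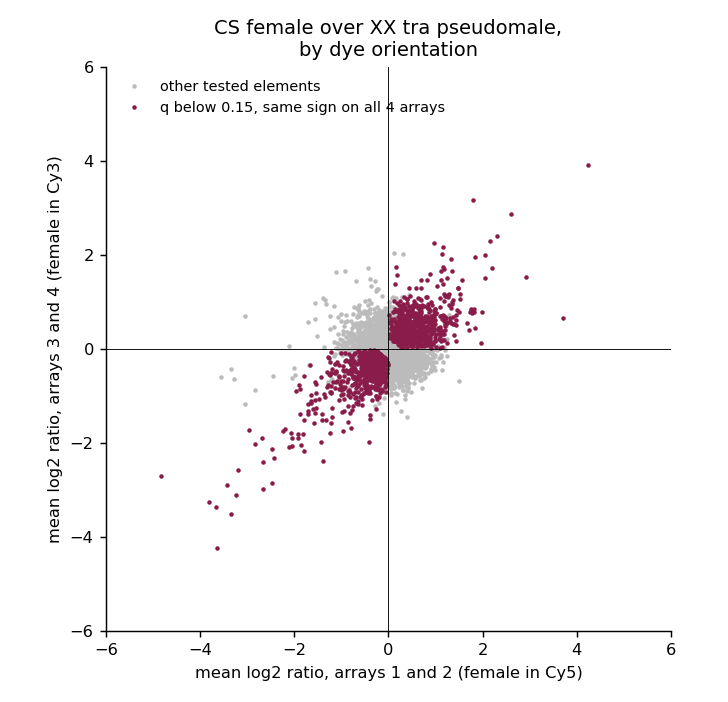
Mean log2 ratio of CS female over XX tra pseudomale on arrays 1 and 2 (x axis, female in Cy5) and on arrays 3 and 4 (y axis, female in Cy3) for the 4298 elements measured on all 4 arrays. The 1444 dark points were called with the same sign on every array and lie in the lower left and upper right quadrants, and the grey points are the other elements.

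The element for tra itself fell in the pseudomales. Its log2 ratios were 0.53, 1.17, 0.90 and 0.99 on arrays 1 to 4, all above 0. The mean was 0.90 ± 0.27 (SD, n = 4; limma q = 0.00311), which is 1.86-fold lower in the pseudomales than in CS females. In the dsxD comparison, its mean was -0.09 on 3 arrays (between -0.34 and 0.19). The difference between the tra and dsxD comparisons was 1.00 ± 0.23 (SE; limma q = 0.0256), lower in tra than in dsxD pseudomales. For females over males its mean was also positive, at 0.37 in CS, 1.03 in Berlin (3 arrays) and 0.58 in tud progeny. The tra ratio exceeded the tud ratio by 0.31 ± 0.21 (SE; limma q = 0.136), a call kept in 2 of 8 fits that each left out 1 array.

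Named genes close to tra in the gene order of chromosome arm 3L also had positive ratios. Rpn12, a subunit of the proteasome regulatory particle that lies 6 genes from tra, had ratios of 0.94, 0.88, 0.24 and 0.37. CG32164, 4 genes away on the other side, had ratios of 1.03, 1.41, 1.11 and 1.12, a mean of 1.17 ± 0.17 (SD, n = 4; limma q = 0.00074). The proteasome core subunit gene Proteasome 26kD subunit (Prosbeta6), 6 genes away on that side, had 1.18, 1.13, 0.23 and 0.41. All 3 fell in the pseudomales, by 1.52-fold, 2.24-fold and 1.67-fold, with every array above 0. Of the 9 genes within 20 places of tra that were named and measured, tra included, 5 fell and 2 rose, beside 23.6% and 16.9% of all named elements. tra itself is in the subset that the study placed downstream of tra.

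Farther out, the neighbours did not share one direction. The pigment transporter gene scarlet, 15 genes from tra, had ratios of 0.64, 0.55, -0.23 and 0.23 and was called with both signs (mean 0.30, limma q = 0.0487), and not without the dye term or without array 4. argos, an inhibitor of the EGF receptor 18 genes away, fell (0.38, 1.11 and 0.61 on 3 arrays; limma q = 0.0192). CG32159, 19 genes away, rose (-0.80, -0.05, -0.57 and -0.66; limma q = 0.0196), and so did zetaCOP, a coatomer subunit gene 17 genes away on the other side (-0.002, -0.11, -0.54 and -0.55; limma q = 0.0302). Lasp, 20 genes away, had ratios between -0.68 and 1.02 and was not called (limma q = 0.376).

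Several of these genes differed between the pseudomale genotypes. The ratio in the tra comparison minus that in the dsxD comparison was 1.21 ± 0.17 for CG32164 (SE; limma q = 0.00526) and 0.59 ± 0.16 for Proteasome 26kD subunit (q = 0.0426). For Rpn12 it was 0.59 ± 0.21 (SE; limma q = 0.0909), a call lost without any single one of the 4 tra arrays, and for scarlet 0.85 ± 0.18 (SE; limma q = 0.0208). Each of these was lower in tra than in dsxD pseudomales. CG32159 was also lower in tra than in dsxD pseudomales (2.19 ± 0.19, SE; limma q = 0.000366), and it was between -2.92 and -2.41 in the dsxD comparison. Over the whole array, 741 of 5387 elements (13.8%) were called lower and 660 (12.3%) higher in tra than in dsxD pseudomales. Both comparisons were made against CS females, and which genes the deficiency removes is not given in the sources used here.

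**Figure D2:**
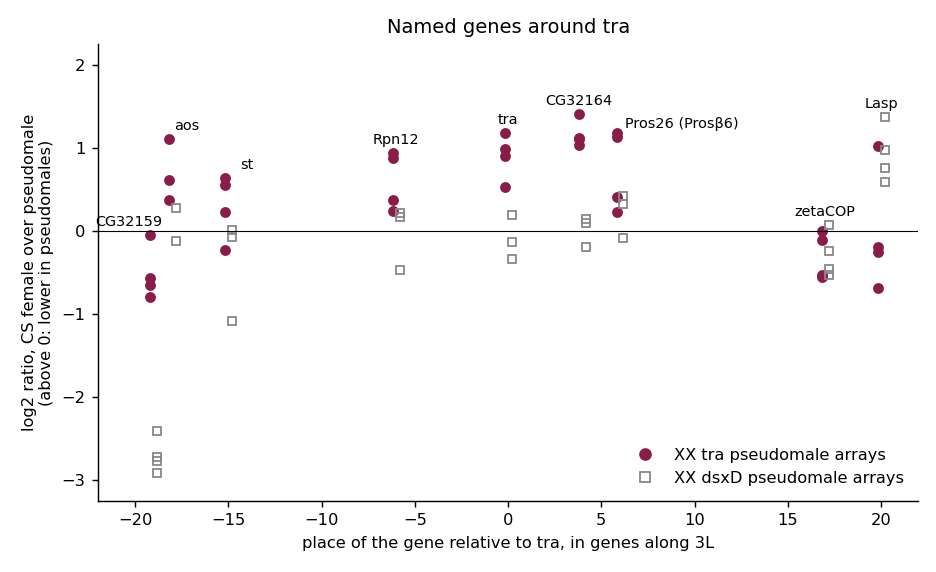
Log2 ratio of CS female over pseudomale (y axis) for the 9 named genes within 20 genes of tra on 3L, by their place in the gene order (x axis). Filled circles are the tra pseudomale arrays and open squares the dsxD pseudomale arrays. From Rpn12 to Proteasome 26kD subunit all circles lie above 0.

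Of the transcripts that follow the number of X chromosomes, roX1, a non-coding RNA of the male dosage compensation complex, had ratios of -0.46, 0.26, 0.36 and -0.20, a mean of -0.01 ± 0.39 (SD, n = 4; limma q = 0.391). In tud progeny, where XX females were compared with XY males, the roX1 ratio of female over male was between -9.01 and -7.00 on 4 arrays. The tra ratio exceeded the tud ratio by 7.82 ± 0.35 (SE; limma q = 6.27e-06). roX2 had no value on any of the 4 tra arrays, nor on the dsxD or XX dsx null arrays, while it had values on all 4 arrays of the CS, Berlin and tud comparisons, each of which holds an XY RNA.

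The splicing factor gene Sxl had 1 element measured on 3 tra arrays, with mixed signs (-1.40, 0.87 and 0.29). It was called with a fitted mean of -0.41 (limma q = 0.0567) and not without the dye term (mean -0.08, q = 0.494). Its ratio of female over male in tud progeny was between 1.56 and 2.56, and the difference of the tra from the tud comparison was -2.49 ± 0.22 (SE; limma q = 0.000252). CG3056 (ssx), a paralogue of Sxl, was at 0.10 ± 0.45 (SD, n = 4; limma q = 0.249). No element could be named for dsx, fruitless or the gene of TRA-2, so their levels are not given here.

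The loci of the marked X chromosome were not alike. Its transgene also carries a copy of white, and which copies the white elements detect was not tested. One element for the eye pigment transporter gene white fell (0.45, 1.00 and 0.75 on 3 arrays; fitted mean 0.74, limma q = 0.0137), and the other had ratios of -0.48, 0.69 and 0.13 and was not called (limma q = 0.36). yellow, which is needed for black cuticle pigment, had ratios of 0.64, -0.28, 1.08 and -0.97, a mean of 0.12 ± 0.92 (SD, n = 4; limma q = 0.331). In dsxD pseudomales, yellow was between 1.38 and 3.11 on 4 arrays, and the difference between the comparisons was -2.36 ± 0.51 (SE; limma q = 0.0183), higher in tra than in dsxD pseudomales.

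Named genes of the larval fat body were among those that rose most in the pseudomales. All 7 measured members of the fat body and storage protein list had negative means, and 6 rose, beside 16.4% of all elements. The list holds 10 genes, and the others, which are the yolk protein genes, had no named element, so their direction is not known here. The median log2 ratio of the list was -1.45, beside 0.01 over all tested elements. Larval serum protein 1 alpha (Lsp1alpha), a storage protein of the larval blood, had ratios of -4.21, -3.41, -3.21 and -3.32. Its mean was -3.54 ± 0.45 (SD, n = 4; limma q = 7.72e-05), or 11.6-fold higher in the pseudomales than in CS females, the lowest mean among the named elements with the same sign on 4 arrays. Both of the other subunits rose with it. Lsp1beta had ratios of -1.97, -0.90, -1.82 and -2.15, and Lsp1gamma had -1.71, -1.52, -1.12 and -1.46. Their means were -1.71 ± 0.56 (limma q = 0.00127) and -1.45 ± 0.25 (q = 0.00036; SD, n = 4 each).

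Fat body protein 2 (Fbp2), a relative of alcohol dehydrogenase, had closely spaced ratios of -2.17, -1.95, -1.80 and -2.01 (mean -1.98 ± 0.15, SD, n = 4; limma q = 0.000146). Fat body protein 1 (Fbp1), the receptor by which the fat body takes up storage proteins, rose less, with -0.81, -0.50, -0.63 and -1.21. Transferrin 1, an iron-binding blood protein, rose on its 3 arrays (-0.65, -1.24 and -0.68). The lipophorin receptor gene LpR1 was called at -0.42 (limma q = 0.0168), with array 3 at 0.02. Fewer or more fat body cells and less or more of these RNAs per cell cannot be told apart in whole pupae, and the same holds for every tissue below.

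The ratios of Lsp1alpha and the other named members of the list differed from those in tud progeny, while the comparisons of the sexes were not alike in direction. In CS, the female over male mean of Lsp1alpha was -1.09 (between -1.58 and -0.84), and in Berlin it was 0.41 (between 0.02 and 0.94). In tud progeny, Lsp1alpha was between 0.88 and 1.80 on 4 arrays, positive for female over male, and the difference of the tra from the tud comparison was -4.93 ± 0.19 (SE; limma q = 4.35e-06). For the 7 named genes of the list this difference was between -4.93 and -0.47. In that contrast, 27.2% of the 4913 elements measured in both were called in the same direction and 31.4% in the other. In dsxD pseudomales, Lsp1alpha had a mean of -2.95 (between -3.42 and -2.56) and Fbp2 of -1.52 (between -1.84 and -1.24). The difference between the tra and dsxD comparisons was -0.58 ± 0.21 for Lsp1alpha (SE; limma q = 0.0843) and -0.46 ± 0.19 for Fbp2 (q = 0.116). Of 8 fits that each left out 1 array, 4 kept the call for Lsp1alpha and 3 that for Fbp2, and leaving out tra array 1, 3 or 4 or dsxD array 2 lost both. For LpR1 the difference was -1.17 ± 0.15 (SE; limma q = 0.00256).

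**Figure D3:**
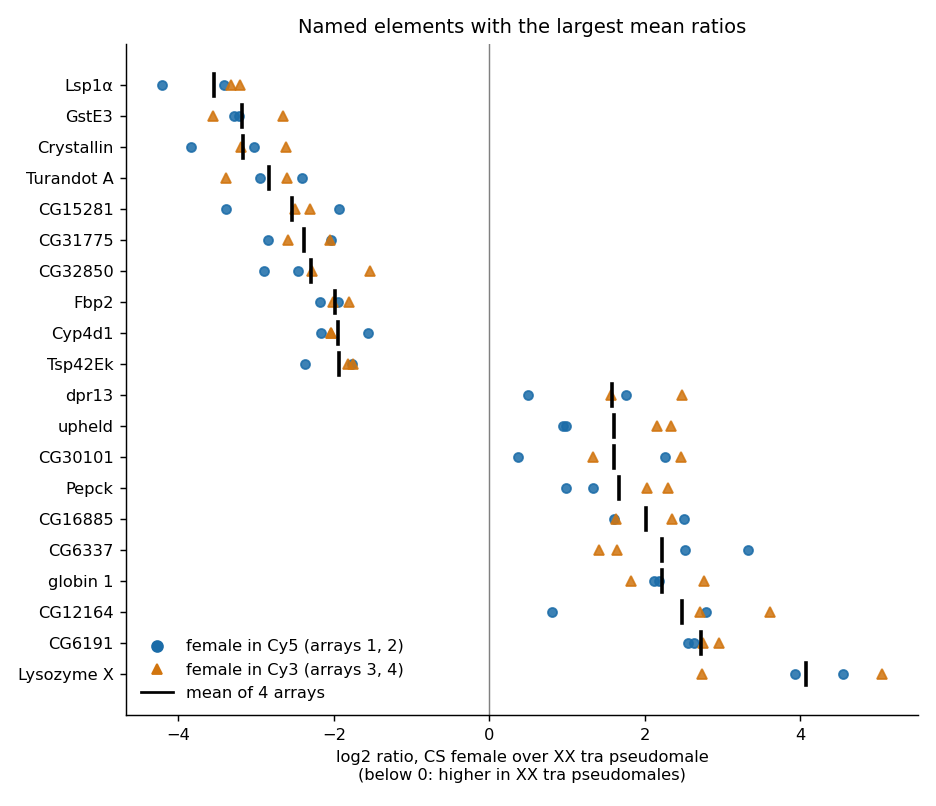
Log2 ratio of CS female over XX tra pseudomale (x axis) on each of the 4 arrays for the 10 named elements with the lowest and the 10 with the highest means among those called with the same sign on 4 arrays. Circles have the female RNA in Cy5, triangles have it in Cy3, and bars are means. The points of Larval serum protein 1 alpha reach -4.21, and those of Lysozyme X reach 5.06.

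Enzymes of detoxification and a stress peptide were also among the named genes that rose most. Glutathione S transferase E3, which couples glutathione to toxic compounds, had ratios of -3.22, -3.28, -3.56 and -2.65, a mean of -3.18 ± 0.38 (SD, n = 4; limma q = 0.000125). Cytochrome P450-4d1 was at -2.17, -1.56, -2.04 and -2.04. Turandot A, a blood peptide secreted under stress, was at -2.94, -2.41, -3.39 and -2.60, or 7.14-fold higher in the pseudomales. No array of these 3 genes came near 0.

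Crystallin, a protein of the corneal lens of the eye, had ratios of -3.02, -3.84, -2.62 and -3.19 (mean -3.17 ± 0.51, SD, n = 4; limma q = 0.000146), or 8.99-fold higher in the pseudomales. In dsxD pseudomales it was between 0.03 and 1.37, so the sign was the opposite, and the difference was -4.13 ± 0.32 (SE; limma q = 0.000201). CG32850 (Rnf11), a gene on chromosome 4, had ratios of -2.90, -2.46, -1.53 and -2.28, beside values between -0.41 and 0.83 in dsxD pseudomales, with a difference of -2.35 ± 0.26 (SE; limma q = 0.00142). Both differences were called without any single array. Cytochrome P450-4d1 was higher in tra than in dsxD pseudomales as well, with a difference of -1.05 ± 0.20 (SE; limma q = 0.0148). In tud progeny, the female over male means of Crystallin and Cytochrome P450-4d1 were 3.60 (between 0.65 and 5.58) and 1.82 (between 1.44 and 2.28), against negative tra ratios.

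For the other named genes that rose most, no difference from dsxD pseudomales was called. Glutathione S transferase E3 averaged -2.17 in dsxD pseudomales (between -3.50 and -0.03) and Turandot A averaged -2.51 (between -3.02 and -1.26). The differences were -1.002 ± 0.61 (SE; limma q = 0.213) and -0.33 ± 0.36 (q = 0.354), which does not show that the genotypes were alike. CG15281 and CG31775 had means of -2.53 ± 0.62 and -2.38 ± 0.40 in tra pseudomales (SD, n = 4 each), beside -1.69 and -2.59 in dsxD pseudomales. Tetraspanin 42Ek, a membrane protein, was at -1.93 ± 0.30 (SD, n = 4), beside -1.44 in dsxD pseudomales. The means of these 5 genes in XX dsx null animals, set against CS females, were between -3.47 and -1.62. In XY dsx null animals, set against CS males, the means of CS male over null were between -4.48 and -1.74.

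Of the named genes that fell, Lysozyme X had the highest mean. Its ratios were 3.94, 4.56, 2.73 and 5.06, a mean of 4.07 ± 1.00 (SD, n = 4; limma q = 0.000516), or 16.8-fold lower in the pseudomales than in CS females. Lysozyme S fell on the 3 arrays that measured it (2.43, 1.46 and 2.93), and Lysozyme B, at -0.74, -0.10, 0.25 and 0.35, was not called (limma q = 0.31). Lysozymes cleave bacterial cell walls, and in flies several are made in the gut. The genes are close relatives, and whether their elements detect one another's RNA was not tested. The other 9 elements of the digestive enzyme list, all trypsins and Jonah proteases, had values on fewer than 3 tra arrays. Lysozyme X was lower in tra than in dsxD pseudomales, where it was between 1.77 and 2.48, with a difference of 1.95 ± 0.44 (SE; limma q = 0.0201).

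CG6191 had closely spaced ratios of 2.56, 2.63, 2.96 and 2.75 (mean 2.73 ± 0.18, SD, n = 4; limma q = 4.48e-05), and it averaged 2.40 in dsxD pseudomales and 0.01 in tud progeny. globin 1, an oxygen-binding protein, had ratios of 2.18, 2.12, 1.82 and 2.77. Phosphoenolpyruvate carboxykinase, which makes a precursor for new glucose, had ratios of 0.99, 1.33, 2.03 and 2.29, or 3.17-fold lower in the pseudomales. For CG6191, globin 1 and Phosphoenolpyruvate carboxykinase the difference from the tud comparison was called, at 2.72 ± 0.14, 2.47 ± 0.23 and 1.89 ± 0.17 (SE; limma q between 8.04e-06 and 0.000147). The difference from the dsxD comparison was not called for any of the 3 (q between 0.166 and 0.457).

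CG12164, CG6337, CG30101 and dpr13 belong to the subset that the study placed downstream of tra, chosen for a female bias in wild type and tud pupae and for a fall on these arrays, so their ratios are a description. CG12164 had ratios of 2.78, 0.81, 3.61 and 2.71 in the tra comparison, and CG6337 had 3.32, 2.51, 1.64 and 1.41. In tud progeny their means of female over male were 4.15 (between 1.70 and 6.31) and 3.16 (between 1.77 and 3.87 on 3 arrays). CG30101 (Vajk4) and dpr13, a cell surface protein with immunoglobulin domains, had means of 1.61 ± 0.96 and 1.58 ± 0.82 in the tra comparison (SD, n = 4 each). In tud progeny the means of CG30101 and dpr13 were 3.81 (between 1.18 and 5.87) and 3.24 (between 0.76 and 5.11). On tud array 4, both were lower than their means in the tra comparison. The tra ratios minus the tud ratios of these 4 genes were between -2.20 and -0.59 (limma q between 0.00806 and 0.0385). CG6337 was higher in tra than in dsxD pseudomales, with a difference of -1.70 ± 0.20 (SE; limma q = 0.00148).

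The related genes CG16884, CG16885 and CG16886 (Vajk3, Vajk2 and Vajk1) fell with all 4 of their elements, 3 of which, both of CG16885 and that of CG16884, are in the subset that the study placed downstream of tra with these arrays. CG16885 had ratios of 2.50, 1.61, 2.35 and 1.63 on one element and 1.43, 0.81, 2.19 and 1.13 on the other. CG16884 had 2.95, 1.74 and 1.49 on 3 arrays, and CG16886 had 1.31, 0.47, 3.03 and 0.13, a mean of 1.23 ± 1.30 (SD, n = 4). The means of both CG16885 elements in dsxD pseudomales were 3.35 and 3.13, and the differences were -1.33 ± 0.38 and -1.74 ± 0.33 (SE; limma q = 0.0451 and 0.0108), higher in tra than in dsxD pseudomales.

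Among genes of chitin, the polysaccharide of the exoskeleton, some fell and none rose in the pseudomales. Of 16 measured elements for chitin synthesis, binding and turnover, 7 fell and none rose, beside 18.2% and 16.4% of all elements, and the median of the list was 0.46. Of the 7 that fell, 5 are in the subset that the study chose with these arrays, which are both elements of verm, Gasp, CG12009 and ChLD3. Of the 11 measured elements outside that subset, 2 fell, beside 23.6% of all named elements, which still hold the subset. Choosing the subset on these arrays took out elements that fell, so this share was lowered in advance and nothing is concluded from it. LDLa domain containing chitin binding protein 1 (verm) and serpentine, both chitin deacetylases, had means of 1.23 ± 0.47 and 0.59 ± 0.29, and the other element of verm had 0.73 ± 0.09 (SD, n = 4 each). The chitin-binding proteins Gasp and obstructor-E had 0.84 ± 0.20 and 0.75 ± 0.40 (SD, n = 4 each; limma q = 0.00219 and 0.00987). CG12009 had ratios of 0.77, 1.77, 0.88 and 1.31. The chitin synthase gene krotzkopf verkehrt had ratios between -0.09 and 0.10 and was not called (limma q = 0.37), and neither was Chitinase 3 (mean -0.05, q = 0.327).

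Cuticle proteins, which bind the chitin, moved in both directions. Of 12 measured, 5 fell and 2 rose, beside 18.2% and 16.4% of all elements, and the median was 0.34. Of the 5 that fell, 3 were chosen by the study with these arrays, which are Cuticular protein 72Ec, CG31878 and Cuticular protein 49Af. Cuticular protein 72Ec fell on all arrays (1.08, 1.26, 1.63 and 1.83; mean 1.45 ± 0.34, SD, n = 4; limma q = 0.000286), as did CG31878 (1.67, 2.26 and 0.93 on 3 arrays). Cuticular protein 66Cb fell with a wider spread (1.20, 0.59, 1.17 and 0.05). Cuticular protein 49Ac rose (-2.49, -1.44, -0.45 and -1.37; mean -1.44 ± 0.84, SD, n = 4; limma q = 0.00336), as did resilin, an elastic protein of joints, with a mean of -0.40 ± 0.26 (SD, n = 4; limma q = 0.03). Cuticular protein 51A and Cuticular protein 72Eb were not called, with means of 0.14 and 0.21. In tud progeny, Cuticular protein 72Ec averaged 4.72, and the difference of the tra from the tud comparison was -3.07 ± 0.15 (SE; limma q = 2.11e-05).

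The genes listed for cuticle relief and for the apical matrix, by which epidermal cells hold on to the cuticle they secrete, had ratios on the other side of 0. All 7 measured had negative means, the median was -0.41, and 3 rose, beside 16.4% of all elements. Of the 3 that rose, miniature and dusky-like are in the subset that the study placed downstream of tra with these arrays. The zona pellucida domain proteins miniature (-1.04, -0.75, -0.56 and -0.34) and dusky-like (-0.78, -0.16, -0.73 and -0.86) rose, at means of -0.67 ± 0.29 and -0.63 ± 0.32 (SD, n = 4 each; limma q = 0.00395 and 0.00883). piopio rose by less, on 3 arrays (-0.01, -0.46 and -0.34; limma q = 0.123), and its call was lost without the dye term. singed, the actin bundling protein of bristles, was not called (mean -0.09, limma q = 0.238). miniature, dusky-like and singed averaged -1.91, -1.64 and -1.61 in dsxD pseudomales, with differences of 1.24 ± 0.20, 1.00 ± 0.18 and 1.52 ± 0.17 between the tra and dsxD comparisons (SE; limma q between 0.00111 and 0.00985).

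Of 7 measured genes of pigment and of cuticle hardening, 3 fell and 1 rose, beside 18.2% and 16.4% of all elements, and yellow-h is in the subset that the study chose with these arrays. yellow-c (1.50, 1.35, 0.13 and 0.21), yellow-h (0.92, 0.87, 0.50 and 0.57) and yellow-e (0.71, 0.27, 0.39 and 0.06) fell, and yellow-f, an enzyme of melanin synthesis, rose (-0.82, -0.13, -0.74 and -0.83). The call for yellow-e was lost without array 3 (limma q = 0.166). Of the 5 elements on the Osiris family list, 2 fell and 1 rose, beside 23.6% and 16.9% of all named elements. Osiris 19 fell on 3 arrays (1.77, 2.75 and 3.30), and Osiris 6, of the subset that the study chose with these arrays, fell by less (0.92, 0.97, 0.59 and 0.40), while Osiris 3 rose (-0.69, -0.31, -0.19 and -0.65). The other 2 members on the list were positive on arrays 1 and 2 and negative on arrays 3 and 4. Osi24, listed in the study as CG15589 and so not on this list, rose and is given below with the subset it belongs to.

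Of 18 measured elements of the muscle list, 8 fell and 2 rose, beside 23.6% and 16.9% of all named elements, and the median ratio was 0.29. Of the 8 that fell, 5 are in the subset that the study placed downstream of tra with these arrays, which are Limpet, Sarcoplasmic calcium-binding protein 1, CG31781, flightin and an element of Tropomyosin 1. Of the 13 measured elements outside that subset, 3 fell and 2 rose, counts from which the choice of the subset had taken out elements that fell on these arrays. Without array 3, 6 elements of the list were called with the same sign, in place of 10. upheld, the troponin T of the thin filament, had ratios of 0.99, 0.94, 2.15 and 2.34, with arrays 3 and 4 above arrays 1 and 2 (mean 1.61 ± 0.74, SD, n = 4; limma q = 0.00019). The LIM domain gene Limpet (1.36, 0.27, 1.66 and 1.28) and Sarcoplasmic calcium-binding protein (1.02, 0.65, 0.90 and 0.81) fell as well, and so did CG31781, at a mean of 0.74 ± 0.28 (SD, n = 4).

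Within the list, flightin, of the flight muscle thick filament, fell at a mean of 0.68 ± 0.56, and Actin 87E rose at -0.55 ± 0.38 (SD, n = 4 each; limma q = 0.00834 and 0.0084). Myosin alkali light chain 1, Myosin light chain 2 and Muscle LIM protein at 84B were not called, with means between -0.08 and 0.07. upheld was lower in tra than in dsxD pseudomales, by 0.64 ± 0.16 (SE; limma q = 0.0338), and its female over male mean in tud progeny was 0.05.

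**Figure D4:**
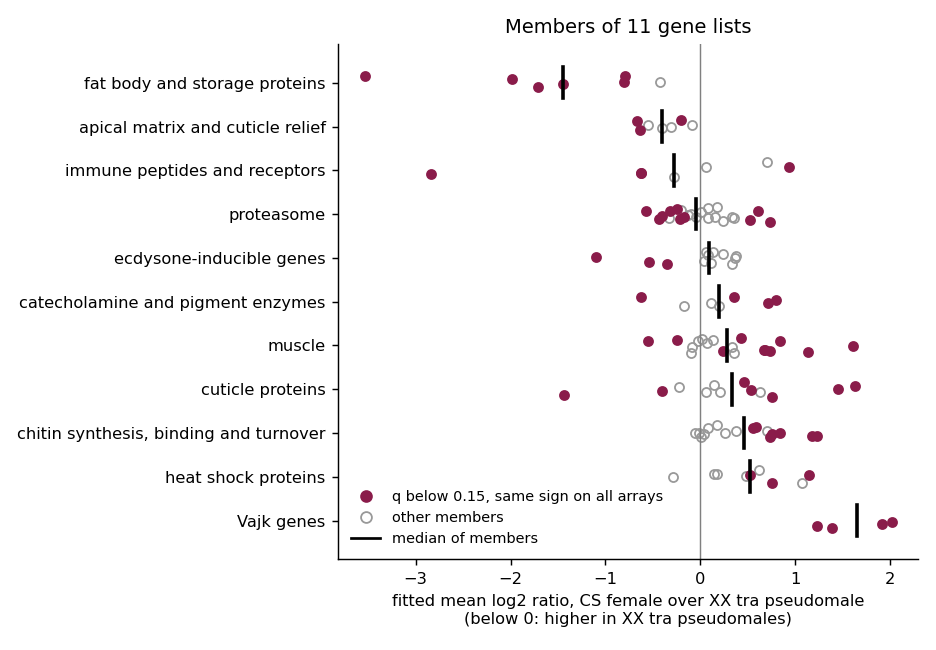
Fitted mean log2 ratio of CS female over XX tra pseudomale (x axis) for the measured members of 11 gene lists (rows, with vertical scatter for legibility). Filled points were called with the same sign on every array, open points are the other members, and bars are medians, which include -1.45 for fat body and storage proteins and 1.66 for the 4 Vajk elements.

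Other lists held single genes with larger ratios. Of 7 measured immune genes, 3 rose and 1 fell, beside 16.4% and 18.2% of all elements. Beside Turandot A, the antifungal peptide Drosomycin (-0.37, -0.49, -0.99 and -0.66) and Turandot B (-0.31, -0.81, -0.68 and -0.70) rose, and drosomycin-5 fell (1.12, 1.25, 0.20 and 1.18). Of 12 measured elements of ecdysone-inducible genes, 3 rose and none fell, or 25% called with the same sign beside 34.6% of all elements. Their median ratio was 0.10 and 3 of the 12 means were negative, and 4 more were called lower with mixed signs. The 3 that rose were vrille, a transcription factor of the circadian clock (-0.93, -0.94 and -1.25 on 3 arrays; limma q = 0.00245), 1 element of Ecdysone-inducible gene E1 (mean -0.54 ± 0.37) and Ecdysone-inducible gene L1 (mean -0.35 ± 0.20; SD, n = 4 each). vrille and that element of Ecdysone-inducible gene E1 are in the subset that the study chose with these arrays, and the other element of Ecdysone-inducible gene E1 had a mean of 0.24 with mixed signs. Of 9 measured heat shock elements, 3 fell (33.3% called with the same sign, beside 34.6% of all elements), which were Heat shock gene 67Bb (1.70, 1.02, 1.02 and 0.86), Heat shock gene 67Ba (0.76, 0.18 and 1.04 on 3 arrays) and the chaperone gene Heat shock protein 27 (0.14, 0.02 and 0.97 on 3 arrays). Without array 1 or array 4, 1 heat shock element was called with the same sign.

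The proteasome list as a whole lay near 0. Of 23 measured elements, 7 rose and 3 fell, beside 16.4% and 18.2% of all elements, and the median ratio was -0.05. Of those that rose, Proteasome 25kD subunit had the lowest mean (-0.34, -0.35, -0.72 and -0.89; -0.58 ± 0.28, SD, n = 4; limma q = 0.00491). Of the 3 that fell, Rpn12 and Proteasome 26kD subunit are the neighbours of tra described above, and the other was Pros45 (1.22, 0.30, 0.15 and 0.43; mean 0.53 ± 0.48, SD, n = 4). Rpn11 and Proteasome p44.5 subunit were not called, with means of -0.13 and -0.10.

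Few transcripts of the male germline were measured in the tra comparison. Of 17 markers of spermatogenesis, 4 had values on at least 3 of the tra arrays, as did 4 in the dsxD comparison, 5 in tud progeny and all 17 in each of the CS and Berlin comparisons of females with males. Of all elements, the number was 6235 in the tra, 6400 in the dsxD, 6057 in the tud, 10690 in the CS and 6821 in the Berlin comparison. Androcam, a relative of calmodulin made in the testis, Cytochrome c distal and Male-specific RNA 84Dc had no value on any tra array and values on all 4 CS arrays. Over the 671 elements of the study's list for the male germline, 279 were measured in the tra, 285 in the dsxD, 278 in the tud, 647 in the CS and 551 in the Berlin comparison. The study chose that list from its time course for higher levels in wild type males than in wild type females and male tud progeny. Some genes without values in the latter groups were added. Fewer values on arrays without RNA of males with a germline thus follow in part from how the list was chosen.

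Of the 4 markers that were measured, beta-Tubulin at 85D, the tubulin of the sperm tail, had 0.50, 0.47 and -0.15 on 3 arrays and was not called (limma q = 0.151). Sperm-specific dynein intermediate chain 2 fell (0.41, 0.12, 0.09 and 0.52; limma q = 0.0576), a call lost without array 1 or array 4. Its copies are near-identical, so the element may detect several of them. Of the 279 measured elements of the male germline list, 44 rose and 60 fell (37.3% called with the same sign, beside 40.5% of all named elements), and the median ratio was 0.03. Without array 4, 59 were called with the same sign, in place of 104. Members that rose included orb2, an RNA-binding protein also made in the nervous system (-1.59, -1.70, -0.82 and -1.15), MICAL, an enzyme that takes actin filaments apart (-2.67, -1.13, -0.59 and -0.96), and CG6279 (-1.08, -1.47 and -1.74 on 3 arrays).

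Of the 350 elements of the study's list for the female germline, 269 were measured, of which 78 fell and 21 rose (36.8% called with the same sign), and the median ratio was 0.11. For all named elements these shares were 40.5% with the same sign, 23.6% lower and 16.9% higher. Members that fell included Osiris 19, globin 1 and Phosphoenolpyruvate carboxykinase, described above, and astray, a phosphoserine phosphatase of serine synthesis (1.46, 1.80 and 2.26 on 3 arrays; fitted mean 1.75, limma q = 0.00118). astray averaged 0.05 in dsxD pseudomales and -0.46 in tud progeny.

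The study's list of somatic genes that differ between the sexes came from wild type and tud arrays of this series. Of 390 measured elements, 138 fell and 58 rose (50.3% called with the same sign, beside 40.5% of all named elements), and the median was 0.20. Of the 295 outside the subset that the study placed downstream of tra, 67 fell and 36 rose, beside 23.6% and 16.9% of all named elements, which still hold the subset. Choosing the subset took out elements that moved on these arrays, so the shares of the 295 were lowered in advance and nothing is concluded from them. The subset that the study placed downstream of tra was chosen with these 4 arrays, so that its counts, which are part of those of the whole list, are no independent evidence: all of its 95 measured elements were called, 72 lower and 23 higher in the pseudomales. Members that rose included brother of iHog, a Hedgehog co-receptor gene, with closely spaced ratios of -1.04, -0.86, -0.86 and -0.81, CG11438 (-0.55, -0.23, -1.53 and -1.46) and CG15589 (Osi24), with -0.79, -0.51, -1.12 and -1.26. Of 166 measured elements of the list that the study placed downstream of dsx, 63 fell and 25 rose, beside 23.6% and 16.9% of all named elements. That list was built in part from the same subset, which holds 66 of the 166, with 45 of those that fell and 19 of those that rose, so it too was chosen in part with these arrays.

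**Figure D5:**
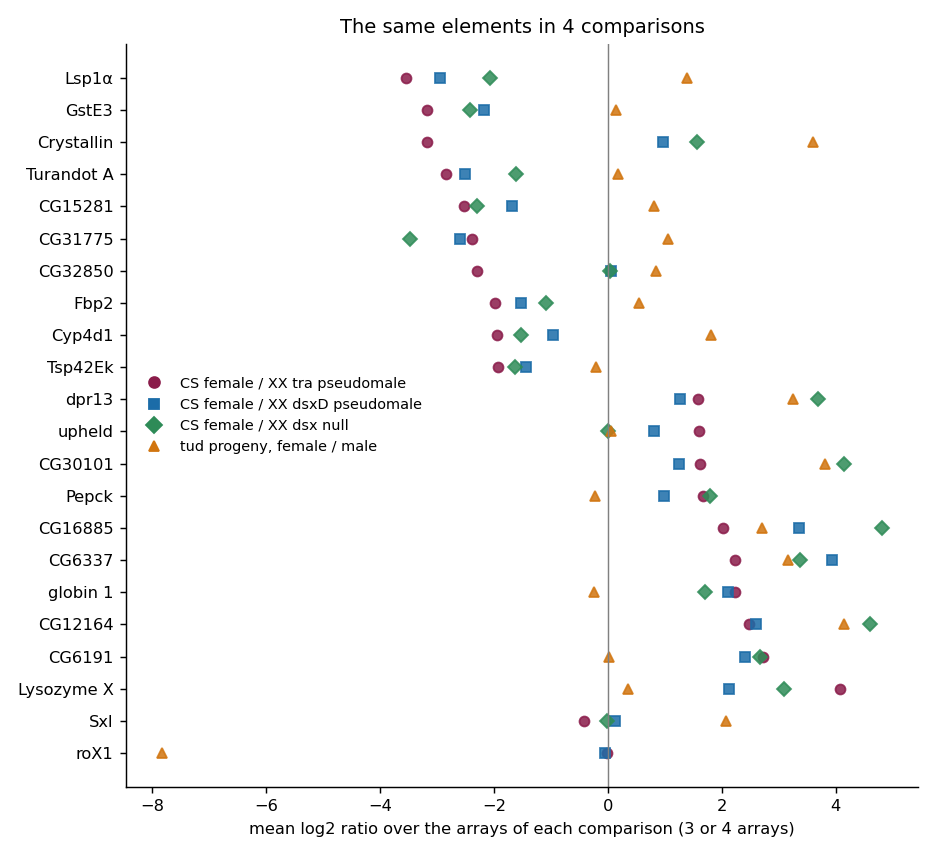
Mean log2 ratio (x axis) of named elements in 4 comparisons, where a comparison had at least 3 arrays with values, as CS female over XX tra pseudomale, CS female over XX dsxD pseudomale, CS female over XX dsx null and female over male tud progeny. Crystallin is at -3.17 in the tra and 0.96 in the dsxD comparison, and roX1 is at -0.01 in the tra and -7.82 in the tud comparison.

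Across all elements, the signs in tud progeny, which share no RNA with the tra arrays, were nearly balanced among elements that rose or fell in tra pseudomales. Of the elements that rose, 756 were measured in tud progeny, and the tud mean was negative, higher in males, for 401 (53%). Of those that fell, 965 were measured and 471 (48.8%) were negative, beside 51.7% of all 4913 elements measured in both. The ratio differed between the tra and tud comparisons for 2882 elements (58.7%). By chromosome arm, the median ratio of named elements in the tra comparison was between 0.04 (X, 300 elements) and 0.08 (3R, 377 elements) on the 5 large arms.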

How the data were processed

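The authors scanned spotted arrays of oligonucleotides of 65 to 69 bases, labelled from 30 µg of RNA, kept elements with over 75% of pixels 1 SD above background in at least 1 channel, and removed intensity trends by a global loess (LIMMA). The deposited values are log2 ratios, 1 per element and array, with dye swaps already turned. Background correction, scaling between arrays and the direction of the ratio are not given in the sources used here. The direction was taken from the headings of the study's list downstream of tra, whose 72 measured female-biased elements all have positive means, and whose 23 measured male-biased elements all have negative means. The number of arrays limits the precision.

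Elements carry no gene name in the deposited table. Identifiers in the study's tables gave names for 2357 elements, 1617 of them tested, and since these tables hold germline, somatic sex-biased and other selected genes, the named elements are no random sample. The RefSeq gene table (Release 6 plus ISO1 MT), which held 2343 of the named elements, gave the symbols in brackets and the gene order. Coordinates and element sequences were not used here.

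In limma 3.58.1 under R 4.3.3, ratios were fitted with an intercept and a dye term, and the intercept was tested two-sided with moderated variances. Storey q values were computed with lambda from 0.05 to 0.95 in steps of 0.05. Means are those of the fit, which differ from plain means for elements on 3 arrays. Differences between comparisons were fitted over 8 arrays with a dye term for each comparison. For tud replicates 2 and 4, fields of the labels disagree on the sex in 1 channel, and the source name was used. Named by rule are the 10 elements with the largest mean in each direction among those called with the same sign on 4 arrays. So are all measured genes of the sex hierarchy, of the differing loci and around tra for which an element could be named. Up to 4 called and 2 uncalled members of each other list were added. serpentine, the other verm element, krotzkopf verkehrt, resilin, Fat body protein 1, Transferrin 1, LpR1, flightin, Actin 87E, Myosin alkali light chain 1, Myosin light chain 2 and Muscle LIM protein at 84B lie outside the rule and were chosen after their values were seen. The members and lists were chosen with earlier results of these data known. The fit was tested on simulated data. Alternatives were no dye term, Benjamini-Hochberg adjustment, other array minimums, centring, scaling, an unmoderated test, a stricter threshold, a replicate block and leaving out each array. Figures used Python 3.11.15 and matplotlib 3.10.9.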

Additional observations from a re-analysis of the deposited data

Results flagged for a closer look

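Among 87 named elements with 4 values, 4 had 1 array far from the other 3, where chance gives about 1 in 20. The gap made up 0.899 of the range for Tetraspanin 42Ek (array 1), 0.863 for yellow-f (array 2), 0.845 for Gasp (array 4) and 0.876 for drosomycin-5 (array 3).

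Between the tra and dsxD comparisons, 20 of 35 named elements checked differed by the limma test of the difference itself. Of all elements measured in both, 1401 of 5387 differed (26%). Many of the 35 were named for having the largest means in the tra comparison, which favours a difference, so their share is no result about these genes. Differences are given as tra minus dsxD, so that a positive value means lower in tra pseudomales. Lower in tra pseudomales were Lysozyme X (1.95), upheld (0.64), transformer (1.00), Proteasome 26kD subunit (0.59), CG3056 (0.39), white (0.74), Rpn12 (0.59), scarlet (0.85), CG32159 (2.19) and CG32164 (1.21). Higher in tra pseudomales were Larval serum protein 1 alpha (-0.58), Crystallin (-4.13), CG32850 (-2.35), Fat body protein 2 (-0.46), Cytochrome P450-4d1 (-1.05), CG6337 (-1.70), both elements of CG16885 (-1.33 and -1.74), yellow (-2.36) and Lasp (-0.95). Those of Larval serum protein 1 alpha, Fat body protein 2, CG3056, white and Rpn12 were lost in at least 1 fit that left out an array.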

How the results depend on the processing

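Counts of called elements depended on the fit. Without the dye term, 1889 elements were called (857 higher and 1032 lower in tra pseudomales), with Benjamini-Hochberg adjustment 2273 (1049 and 1224), with values on at least 2 arrays and no dye term 1876 (869 and 1007), and at a q value below 0.05 2047 (934 and 1113). Leaving out 1 array gave between 1882 (without array 3) and 2834 calls, with 868 to 1338 higher and 1004 to 1496 lower, and between 1383 (without array 4) and 1972 with the same sign on every array. With the same sign on every array, the other settings gave 1454 to 2179. None of the calls shared with an alternative had the opposite sign. Elements differing between the tra and dsxD comparisons were 703 without the dye terms and 829 with Benjamini-Hochberg adjustment, in place of 1401, and between 650 (without dsxD replicate 2) and 2028 (without dsxD replicate 4) when 1 array was left out. For the tra and tud comparisons the number was 1345 without the dye terms, in place of 2882, and between 1950 and 2543 when 1 array was left out. The cause was not tested.

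Of the named genes, 3 that were not called changed sign and were called when 1 array was left out: yellow was between -0.40 (without array 3) and 0.63, Lasp between -0.35 and 0.29 (without array 4), and alpha-Tubulin at 84D between -0.83 and 0.36 (without array 1). Replicate numbers were not taken as pairs, since deviations of same-numbered arrays correlated at between 0.07 and 0.48 (dsxD) and between 0.15 and 0.33 (tud), but at between -0.12 and 0.17 within a dye orientation. With a replicate block, 1087 elements differed between the tra and dsxD and 2122 between the tra and tud comparisons.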

Other observations

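Of the elements called with the same sign on every array, 1504 had no name here. The lowest means among those measured on 4 arrays were those of DAC029E13 (-3.20, -4.11, -4.65 and -3.81) and DAC029H06 (-5.15, -4.52, -1.80 and -3.63), and the highest were those of DAC037C12 (2.11, 2.52, 1.56 and 3.22) and DAC040G02 (5.11, 2.31, 0.41 and 0.89). In the dsxD comparison, DAC029E13 averaged -3.09, DAC029H06 -3.66, DAC037C12 2.06 and DAC040G02 0.73.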
